A study of Mus musculus with 12 samples.

Results

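Collagen genes were examined in chromatin immunoprecipitation data from irradiated mouse back skin. The members are the protein-coding genes whose symbol is Col, a number, the letter a and a number, and 44 of the 21887 protein-coding genes of the RefSeq mouse table met this. They were sorted by the structure their products form into 11 fibrillar, 8 basement membrane, 2 epidermal, 6 beaded filament, 9 fibril-associated (FACIT) and 3 short-chain network collagens, 3 other transmembrane collagens and 2 others. A gene was said to have a peak when a peak midpoint lay inside it or within 5 kb of either end.

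The series holds 12 samples in 6 groups of 2, all from back skin of mice aged 8 to 10 weeks under a protocol of 5 Gy of ionizing radiation. Wild-type (WT) skin was profiled with antibodies to H3K4me3 and to p53, and K17KO skin with the p53 antibody, at T0 and 6 h each. The labels write the second genotype as K17KO without saying how its allele was made, and neither the strain nor the control is stated there. The 3 deposited peak lists were analysed, and none of them names a time point, a replicate or a control. The list called K17KO p53 names its genotype, whereas WT was inferred for the list that names p53 alone. No value below therefore has a replicate error, T0 and 6 h were not compared, and a difference between genotypes cannot be told apart from a difference between lists.

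Collagens are trimeric proteins of the extracellular matrix. Fibrillar collagens build the tension-bearing fibres of the dermis, type IV collagen forms the sheet-like network of basement membranes, and collagens VII and XVII fasten the epidermis to the dermis. p53 is a transcription factor that binds DNA after damage, and H3K4me3 is a histone mark of active promoters. The genes of dermal fibrillar collagens, such as types I and III, and of type VI collagen are read mainly in fibroblasts. Col7a1 and Col17a1 are active in keratinocytes.

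The WT p53 list held 2909 peaks with a median fold enrichment of 4.02, the K17KO p53 list 1101 with a median of 4.60, and the H3K4me3 list 5464 with a median of 1.66. The fold, as the authors deposited it, is the fragment pileup at a peak over the caller's background. The median peak rested on 7 fragments in the WT p53 list, 11 in the K17KO p53 list and 148 in the H3K4me3 list. Of the skin cell markers, an H3K4me3 peak was found at 3 of 8 keratinocyte genes (Krt1, Krt10 and Krt15), 0 of 8 dermal fibroblast genes, 1 of 5 endothelial genes (Tie1), 1 of 4 adipocyte genes (Plin1), and 0 of 5 immune and 0 of 5 skeletal muscle genes. All protein-coding genes had such a peak in 23.9% of cases, so these small counts of genes do not set a marker list apart. Counted as peaks per megabase (Mb) of gene window, the keratinocyte list had 22.0 (exact Poisson interval 9.51 to 43.4). This interval lay above the 4.07 of all protein-coding genes, and that of every other marker list took 4.07 in. The 8 keratinocyte peaks fell at Krt1, Krt10 and Krt15 only. These intervals cover counting error only, and the rates were not tested. The fibroblast markers without a peak included Pdgfra, Dpt and Vim, and the share of each cell type in the tissue was not measured. The H3K4me3 control is unknown and the median peak had a background of 90.7 fragments, so a gene without a peak in that list cannot be said to lack the mark.

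Across all 3 lists 17 of the 44 collagen genes had a peak and 27 had none. The share of all protein-coding genes with a peak in any list was not computed, so this count has no background beside it. In the WT p53 list 10 members had a peak (22.7%, exact 95% interval 11.5 to 37.8), where 6.75% of all protein-coding genes had one. In the K17KO p53 list 2 members had a peak (4.55%, 0.555 to 15.5), against 3.79% of all genes. In the H3K4me3 list 6 members had a peak (13.6%, 5.17 to 27.4), against 23.9% of all genes. The WT p53 share was thus above that of all genes, the K17KO share near it and the H3K4me3 share below it, although the H3K4me3 interval took in the value of all genes. Intervals here and below cover counting error only.

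**Figure D1:**
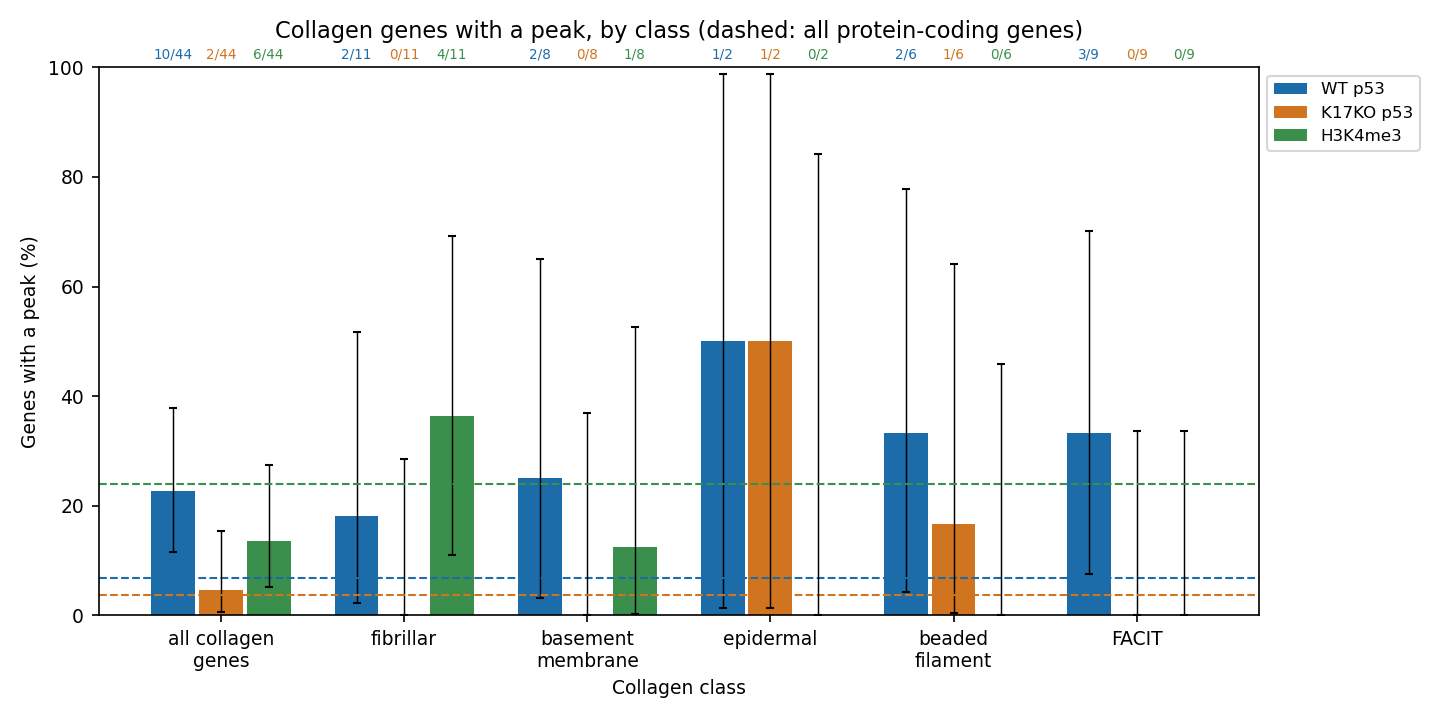
Share of genes with a peak (percent, y axis) for all collagen genes and for 5 classes (x axis) in the WT p53, K17KO p53 and H3K4me3 lists, with exact 95% binomial intervals as error bars, counts above the bars and the share of all protein-coding genes as dashed lines (6.75%, 3.79% and 23.9%). The H3K4me3 bar of the fibrillar collagens, 4 of 11, is the tallest of that list, and the intervals of all classes overlap.

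Collagen genes are long, with a median of 114 kb and a range from 7.11 kb (Col10a1) to 420 kb (Col25a1), where the median protein-coding gene spans 17.2 kb. A longer gene has more room for a peak, so peaks were also counted per megabase of gene window. The WT p53 list had 1.71 peaks per Mb over collagen genes (exact Poisson 95% interval 0.820 to 3.14) and 1.27 over all protein-coding genes. The K17KO p53 list had 0.513 (0.106 to 1.50) and 0.608. By this measure both p53 intervals took in the rate of all genes. The H3K4me3 list had 1.03 peaks per Mb over collagen genes (0.376 to 2.23) and 4.07 over all genes. H3K4me3 sits at promoters, of which a long gene has few, so the share within 5 kb of a gene end is the closer comparison: it was 11.4% of members, 5 genes (exact 95% interval 3.79 to 24.6), against 21.5% of all genes, which this interval took in.

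The fibrillar collagens were the class with most H3K4me3 peaks, at 4 of 11 members (36.4%, exact 95% interval 10.9 to 69.2). The interval took in the 23.9% of all protein-coding genes, and the class had 3.46 H3K4me3 peaks per Mb (0.943 to 8.86) against 4.07, so the class was near the background. Of these 4 peaks, 3 lay at a gene start. Col1a2, which encodes the α2 chain of type I collagen, the main fibre of the dermis, had a 1.83-fold peak at chr6:4505847-4506187 with 47 fragments over a background of 25.2, its midpoint 399 bp inside the gene. Col5a1, whose type V chain starts and limits fibril growth, had a 1.35-fold peak at chr2:27886602-27886839 with 132 fragments over 97.2, centred 295 bp after the listed start. Col11a2, a type XI chain best known from cartilage, had a 2.37-fold peak at chr17:34038643-34038882 with 28 fragments over 11.2. Its midpoint lay 157 bp outside the gene, 376 bp before the listed start and 0.359 kb from the neighbouring gene Rxrb, so the peak could belong to either gene. The Col5a1 peak was among the weakest of its list, at the 9.76th percentile by fold and with a −log10 q of 0.581, which is a q-value above 0.1.

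The 250 bases before the listed start of each of these genes are shown because they are the promoters beside the H3K4me3 peaks. The listed start of Col11a2 is chr17:34039138, while the gene itself begins at 34038919, so most of its 250 bases lie inside the gene. They come from the RefSeq promoter table (GRCm38.p6, plus strand) and span chr6:4505368-4505617, chr2:27886175-27886424 and chr17:34038888-34039137 in the order below. Capitals mark matches on either strand to the TATA box TATAAA, the CCAAT box CCAAT and the GC box GGGCGG.
Col1a2: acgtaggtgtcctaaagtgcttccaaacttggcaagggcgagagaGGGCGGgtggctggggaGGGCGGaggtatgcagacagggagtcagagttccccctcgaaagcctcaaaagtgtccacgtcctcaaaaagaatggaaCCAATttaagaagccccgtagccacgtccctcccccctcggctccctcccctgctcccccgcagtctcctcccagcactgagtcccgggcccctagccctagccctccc
Col5a1: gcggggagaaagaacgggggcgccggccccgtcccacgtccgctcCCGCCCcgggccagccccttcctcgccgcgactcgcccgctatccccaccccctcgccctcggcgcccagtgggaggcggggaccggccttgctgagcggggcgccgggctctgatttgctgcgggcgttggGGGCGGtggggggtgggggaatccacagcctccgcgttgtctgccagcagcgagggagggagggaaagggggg
Col11a2: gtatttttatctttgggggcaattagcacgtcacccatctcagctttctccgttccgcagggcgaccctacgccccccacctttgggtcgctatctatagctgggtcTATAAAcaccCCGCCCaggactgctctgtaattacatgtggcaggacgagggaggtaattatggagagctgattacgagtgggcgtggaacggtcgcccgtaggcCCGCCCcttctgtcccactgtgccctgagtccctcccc
The Col1a2 promoter held a CCAAT box beginning 109 bases before the start and 2 GC boxes at 205 and 188 bases before it. The Col5a1 promoter held 2 GC boxes, at 205 and 73 bases, and neither of the other motifs. The Col11a2 promoter held a TATA box at 143 bases and 2 GC boxes at 133 and 38 bases. Of 32851 promoters in the table, 12.4% hold the TATA letters, 33.8% the CCAAT letters and 32.7% the GC box, and of 38 collagen promoters 13.2%, 34.2% and 57.9% do. The 3 sequences had a GC content of 62%, 76.4% and 57.6%, against a median of 52.4% over all promoters.

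The fourth fibrillar member with an H3K4me3 peak was Col2a1, the type II collagen of cartilage. Its 5.47-fold peak at chr15:97981424-97981836 had the highest H3K4me3 fold of the collagen genes and stood at the 99.0th percentile of the list. It rested on 13 fragments over a background of 1.56 and lay 6.03 kb inside the gene, away from either end. Its high fold thus came with few fragments and a low background. The start-site peaks at Col1a2 and Col5a1 had more fragments over higher backgrounds, 25.2 and 97.2.

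The WT p53 list had a peak at 2 fibrillar genes (18.2%, 2.28 to 51.8), which are neighbours on chromosome 1. Col3a1 encodes type III collagen, the finer fibre of extensible skin, and its 5.02-fold peak at chr1:45347627-45347842 lay 36.2 kb after the start and 1.97 kb before the 3′ end. It rested on 9 fragments over 0.992. Col5a2, a type V chain, had a 3.67-fold peak at chr1:45458546-45458761 with 6 fragments over 0.906, 44.6 kb inside the gene. The Col3a1 peak had a q-value of 0.01 or less, and that of the Col5a2 peak was above 0.1. No fibrillar gene had a K17KO p53 peak.

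The other 5 fibrillar genes, Col1a1, Col5a3, Col11a1, Col24a1 and Col27a1, had no peak in any list. Col1a1, the α1 chain of type I collagen, had its nearest H3K4me3 peak 88.1 kb away, its nearest WT p53 peak 625 kb away and its nearest K17KO p53 peak 462 kb away. The partner chains of type I collagen therefore differed in these lists, with a start-site H3K4me3 peak at Col1a2 and none near Col1a1.

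**Figure D2:**
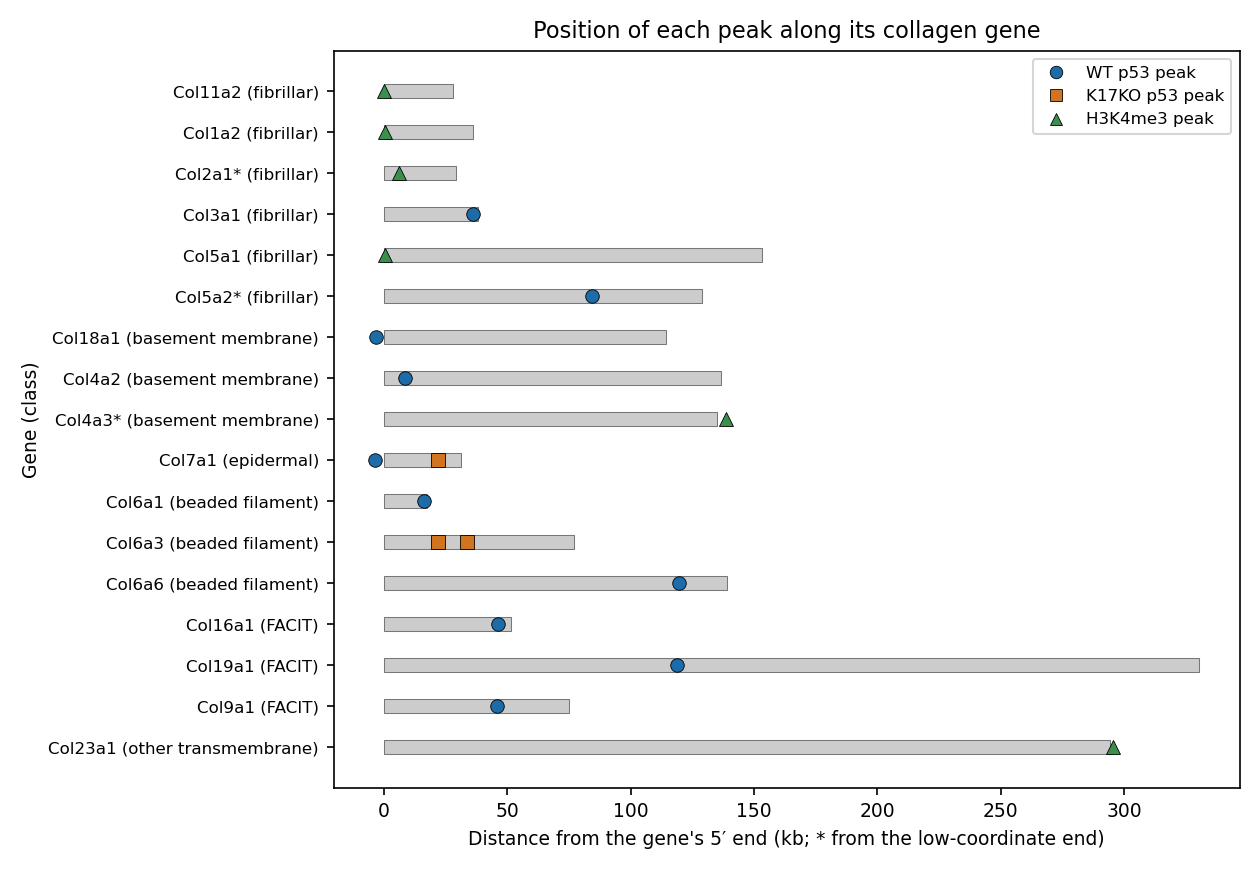
Position of each peak (marker) along the 17 collagen genes with a peak (grey bars, length to scale in kb), measured from the 5′ end, or from the low-coordinate end for the genes marked with an asterisk. H3K4me3 peaks of Col1a2, Col5a1 and Col11a2 sit at the 5′ end, while most p53 peaks sit well inside their gene.

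Among the basement membrane collagens 2 of 8 had a WT p53 peak (25%, 3.19 to 65.1). Col18a1 encodes a heparan sulfate-bearing collagen whose end fragment is endostatin. Its 4.78-fold peak, at chr10:77169759-77170048 with 9 fragments over 1.09, lay 3.37 kb before the gene's start. Col4a2 encodes a chain of the type IV network found in nearly all basement membranes. Its 4.39-fold peak at chr8:11320991-11321206, with 8 fragments over 1.05, lay 8.29 kb inside the gene. Col4a1, the partner chain, begins beside Col4a2 and is read away from it, and the same peak lay 8.21 kb outside Col4a1 and was not counted for it.

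A single basement membrane gene had an H3K4me3 peak (12.5%, 0.316 to 52.7) and none had a K17KO p53 peak. That gene was Col4a3, a type IV chain of kidney and lung basement membranes, with a 1.50-fold peak at chr1:82725298-82725589 on 145 fragments over 96.3. The midpoint lay 3.38 kb outside Col4a3 and inside the neighbouring gene Mff, so the peak was assigned to the collagen gene by the window only. Col4a4, Col4a5, Col4a6, Col15a1 and Col4a1 had no peak in any list. The nearest H3K4me3 peak to these genes was 39.5 kb away, from Col15a1.

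The epidermal collagens are Col7a1, whose product forms the anchoring fibrils beneath the basement membrane, and Col17a1, a transmembrane collagen of hemidesmosomes. Col7a1 was the only collagen gene with a peak in both p53 lists. The WT peak, at chr9:108949655-108949954, was 3.20-fold with 7 fragments over 1.50 and lay 3.78 kb before the start. It was 0.163 kb from the next gene, Uqcrc1, and had a −log10 q of 0.640. The K17KO peak, at chr9:108975138-108975838, was 5.85-fold with 19 fragments over 2.42 and lay 21.9 kb after the start. The midpoints were 25.7 kb apart, so the gene was shared and the site was not.

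The K17KO peak at Col7a1 was 701 bp wide, with a −log10 q of 6.08, the highest among the p53 peaks at collagen genes. In the WT list the Col7a1 peak was at the 9.95th percentile by fold, and in the K17KO list its peak was at the 88.9th. Folds of separate lists are set side by side and were not compared. Col17a1 had no peak in any list, with the nearest WT p53 peak 57.4 kb away and the nearest H3K4me3 peak 65.9 kb away. Col7a1 had no H3K4me3 peak either, the nearest being 54.0 kb away.

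Set side by side, fibrillar, basement membrane and epidermal genes had a WT p53 peak at 2 of 11, 2 of 8 and 1 of 2 members, where 6.75% of all genes had one. For K17KO p53 the counts were 0 of 11, 0 of 8 and 1 of 2 (3.79% of all genes), and for H3K4me3 4 of 11, 1 of 8 and 0 of 2 (23.9%). In WT p53 peaks per Mb the fibrillar class had 1.73 (0.210 to 6.25) and the basement membrane class 1.52 (0.184 to 5.48), near the 1.27 of all genes. The exact intervals of the 3 classes overlapped in every list, and the differences between classes were not tested. When only peaks within 5 kb of a gene end were counted, the WT p53 members fell from 10 to 4 (Col3a1, Col6a1, Col7a1 and Col18a1). The K17KO members fell from 2 to 0. The WT p53 share was then 9.09% (exact interval 2.53 to 21.7) and the K17KO share 0% (0 to 8.04). Of all genes 2.72% and 2.37% had such a peak, and both intervals took in these values. Of the WT p53 members 3 had a q-value of 0.01 or less (Col3a1, Col16a1 and Col19a1). They are 6.82% of the collagen genes, where 0.822% of all genes had such a peak, and these shares take no account of gene length.

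The remaining classes held 23 genes, of which 7 had a peak in some list, again a count without a background share. The beaded filaments of type VI collagen link cells to the fibrous matrix. Of their 6 genes 1 had a K17KO p53 peak, against 3.79% of all genes. This gene, Col6a3, had 2 such peaks. The first, at chr1:90821892-90822182, was 5.85-fold with 12 fragments over 1.22 and lay 21.9 kb after the start. The second, at chr1:90810448-90810738, was 5.15-fold with 14 fragments over 1.91 and lay 33.4 kb after it. Both had a q-value of 0.01 or less. The nearest WT p53 peak to Col6a3 was 651 kb away.

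In the WT p53 list the beaded filament genes Col6a6 and Col6a1 had a peak. Col6a6, at chr9:105708664-105709043, had 4.12-fold with 7 fragments over 0.943. Col6a1, at chr10:76709755-76710148, had 3.06-fold with 6 fragments over 1.29, 1.16 kb before its 3′ end. The Col6a1 −log10 q of 0.376 equals the lowest of all WT p53 peaks. Col6a2, Col6a4 and Col6a5 had no peak in any list.

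FACIT collagens decorate the surface of fibrils, and 3 of 9 had a WT p53 peak (33.3%, 7.49 to 70.1), against 6.75% of all genes. Per megabase the class had 2.30 WT p53 peaks (0.474 to 6.71) against 1.27 over all genes, which this interval took in. Col16a1 had the highest WT p53 fold of the collagen genes, 5.09 with 9 fragments over 0.964 at chr4:130093911-130094283, 5.18 kb before the 3′ end. Col19a1 had 5.02-fold with 9 fragments over 0.992 at chr1:24469163-24469378, deep in the gene at 118 kb from the start. Col9a1, whose 3′ end lies 4.94 kb from Col19a1, had 4.02-fold with 7 fragments over 0.992 at chr1:24223346-24223561, 28.3 kb after the nearest listed start. No FACIT gene had a K17KO p53 or an H3K4me3 peak.

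The last of the 17 was Col23a1, a transmembrane collagen, with a 1.71-fold H3K4me3 peak at chr11:51584887-51585166 on 208 fragments over 122. It lay 1.10 kb beyond the 3′ end of Col23a1 and inside the neighbouring gene Phykpl, 295 kb from the start of Col23a1. The 3 short-chain network genes, the other transmembrane genes and Col26a1 and Col28a1 had no peak.

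**Figure D3:**
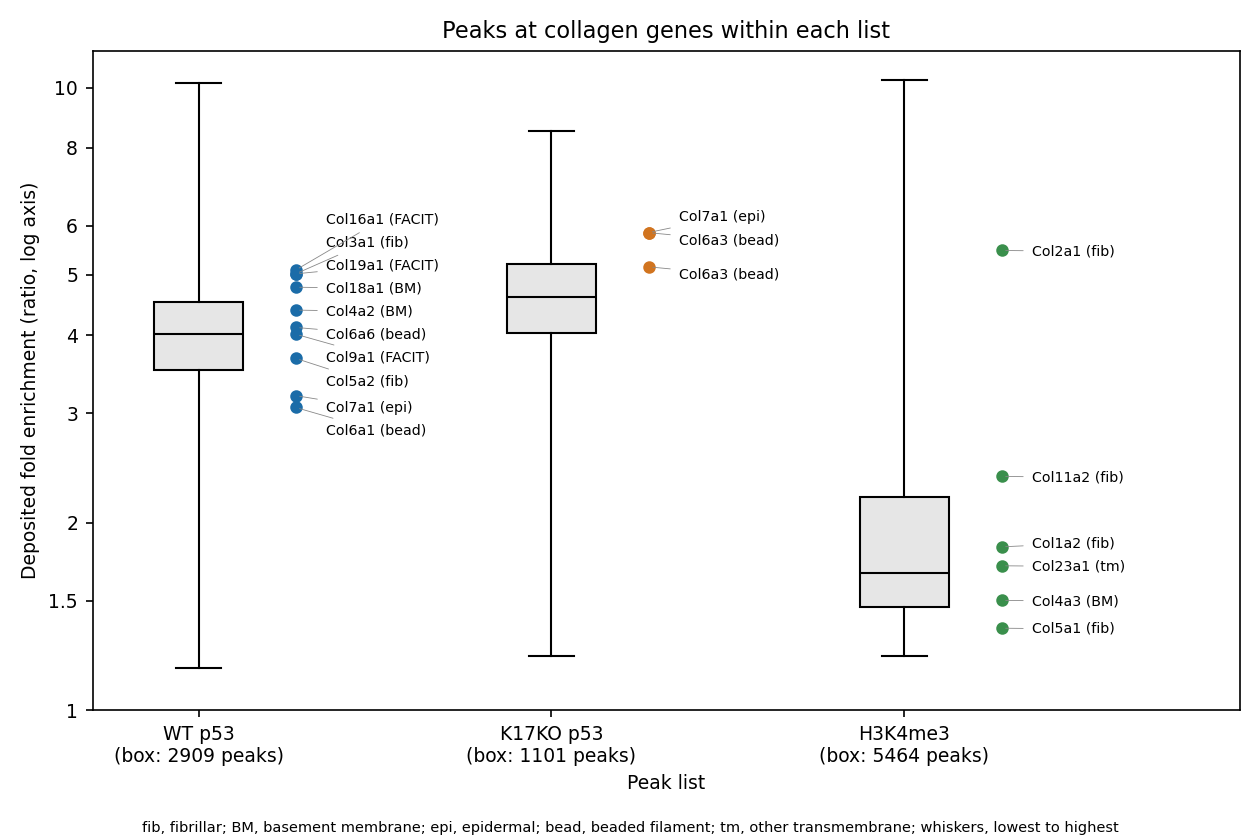
Deposited fold enrichment (log axis) of the 19 peaks at collagen genes (points, named with their class) beside all peaks of each list (boxes: median and quartiles, whiskers: lowest to highest). WT p53 points run from 3.06 to 5.09 around the list median of 4.02, the 3 K17KO p53 points lie above 4.60, and Col2a1 at 5.47 stands apart in the H3K4me3 list.

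The WT p53 peaks at collagen genes had a median of 4.25, against 4.02 over the whole list. They rested on 6 to 9 fragments each, and 5 of the 10 were 216 bp wide, the minimum width of that list, as were 1473 of its 2909 peaks. The 3 K17KO p53 peaks had a median of 5.85, against 4.60 over their list, and 12 to 19 fragments. The 6 H3K4me3 peaks had a median of 1.77, against 1.66. No p53 peak at a collagen gene lay within 1 kb of a listed gene start (0 of the 12 with a listed start). The share of all p53 peaks that lie this near a start was not counted, so this cannot be called particular to collagen genes.

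No site at a collagen gene was shared between lists. Among the 19 peaks none overlapped a peak of another list at a collagen gene, and none came within 1 kb of one. No collagen gene had both a p53 peak and an H3K4me3 peak. How often the lists overlap over all peaks and all genes was not counted, so these absences cannot be called particular to collagen genes. At the edge of the 5 kb window, the members just inside were Col7a1 (3.78 kb outside the gene) and Col18a1 (3.37 kb) for WT p53 and Col4a3 (3.38 kb) for H3K4me3. Those just outside were Col4a1 (8.21 kb), Col11a1 (9.11 kb) and Col10a1 (12.1 kb) for WT p53, and Col8a2 (7.14 kb) and Col16a1 (8.65 kb) for H3K4me3. For K17KO p53 the nearest member outside was Col20a1, at 90.0 kb.

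Genes that make, trim, bind and degrade collagen were counted in the same way. Of 77 such genes, 8 had a WT p53 peak (10.4%), 8 a K17KO p53 peak (10.4%) and 19 an H3K4me3 peak (24.7%), where all protein-coding genes had 6.75%, 3.79% and 23.9%. Among genes of collagen folding and secretion 9 of 17 had an H3K4me3 peak (52.9%), against 23.9% of all genes. The highest folds were at Colgalt2, a collagen galactosyltransferase (1.87-fold), and P3h1, a prolyl 3-hydroxylase (1.71). Next were Mia3, which exports procollagen from the endoplasmic reticulum (1.64), and P3h2 (1.55). The P3h1, P3h2 and Colgalt2 peaks lay 262, 269 and 317 bp inside the gene. This list had 12.6 H3K4me3 peaks per Mb (6.06 to 23.3), against 4.07 over all protein-coding genes, and its genes had a median length of 16.7 kb. The share within 5 kb of a gene end, the closer comparison for this mark, was not computed for the list. The Plod1, Ppib and Plod3 peaks of this list lay inside neighbouring or overlapping genes. Those at Plod1 and Plod3 had a −log10 q of 0.246 and 0.866, which are q-values above 0.1.

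Procollagen processing and crosslinking genes had a WT p53 peak at 4 of 12 members (33.3%), against 6.75% of all genes. They were the lysyl oxidase family genes Loxl1 (4.81-fold) and Loxl2 (4.07), and Adamts3 (3.86) and Adamts2 (3.45), proteases that cut the amino-terminal propeptide from procollagen. Loxl1 also had a K17KO p53 peak (4.45-fold). The list had 4.63 WT p53 peaks per Mb (1.50 to 10.8), against 1.27 over all genes. This rate rested on 5 peaks, 2 of them at Loxl1, whose stronger WT peak lay 3.34 kb outside the gene. The Adamts3 and Adamts2 peaks had a −log10 q of 0.958 and 0.656, which are q-values above 0.1. For H3K4me3 2 of 12 members had a peak (16.7%), against 23.9% of all genes. They were Pcolce (1.49-fold) and Loxl3 (1.27), and both peaks lay inside neighbouring genes.

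Basement membrane partners, the laminins, their receptors and linkers, had a K17KO p53 peak at 6 of 15 members (40%), against 3.79% of all genes. A WT p53 peak was found at 2 (13.3%), Lamc1 (4.83-fold) and Dst (3.06), against 6.75% of all genes. These shares take no account of gene length, and the median length in this list was 71.5 kb. The highest K17KO folds were at the laminin gene Lama5 (6.18), the hemidesmosome integrin gene Itgb4 (4.98), the hemidesmosome linker gene Dst (4.56) and the laminin gene Lamc1 (4.26). The Lama5 peak lay 4.66 kb outside the gene, inside Adrm1. The list had 2.86 K17KO p53 peaks per Mb (1.05 to 6.22), against 0.608 over all genes. An H3K4me3 peak was found at 4 of 15 members (26.7%), near the 23.9% of all genes. In all, 18 such rates were computed for the pathway lists, and none was tested. The intervals of 15 took in the rate of all genes, and the 3 printed here are those that did not.

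Collagen breakdown genes had an H3K4me3 peak at 3 of 12 members (25%), near the 23.9% of all genes. They were Timp2, an inhibitor of matrix metalloproteinases (3.71-fold), and the metalloproteinase genes Mmp2 (2.07) and Mmp14 (1.37), and the Timp2 peak overlapped the gene Cep295nl. Mrc2, a receptor that takes up collagen, had a WT p53 peak (4.72), and Timp3 a K17KO p53 peak (4.41) that lay within the overlapping gene Syn3. Of 9 collagen receptor genes only Itga1 had a peak, for H3K4me3 (1.53-fold), which is 11.1% against 23.9% of all genes. The 12 other dermal matrix genes, Dcn, Lum, Fn1 and Eln among them, had no peak in any list. All genes had a WT p53 peak in 6.75% of cases, a K17KO p53 peak in 3.79% and an H3K4me3 peak in 23.9%. Fkbp10, a chaperone of type I procollagen, had a WT p53 peak of 3.02-fold, the sole p53 peak of the folding and secretion list.

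**Figure D4:**
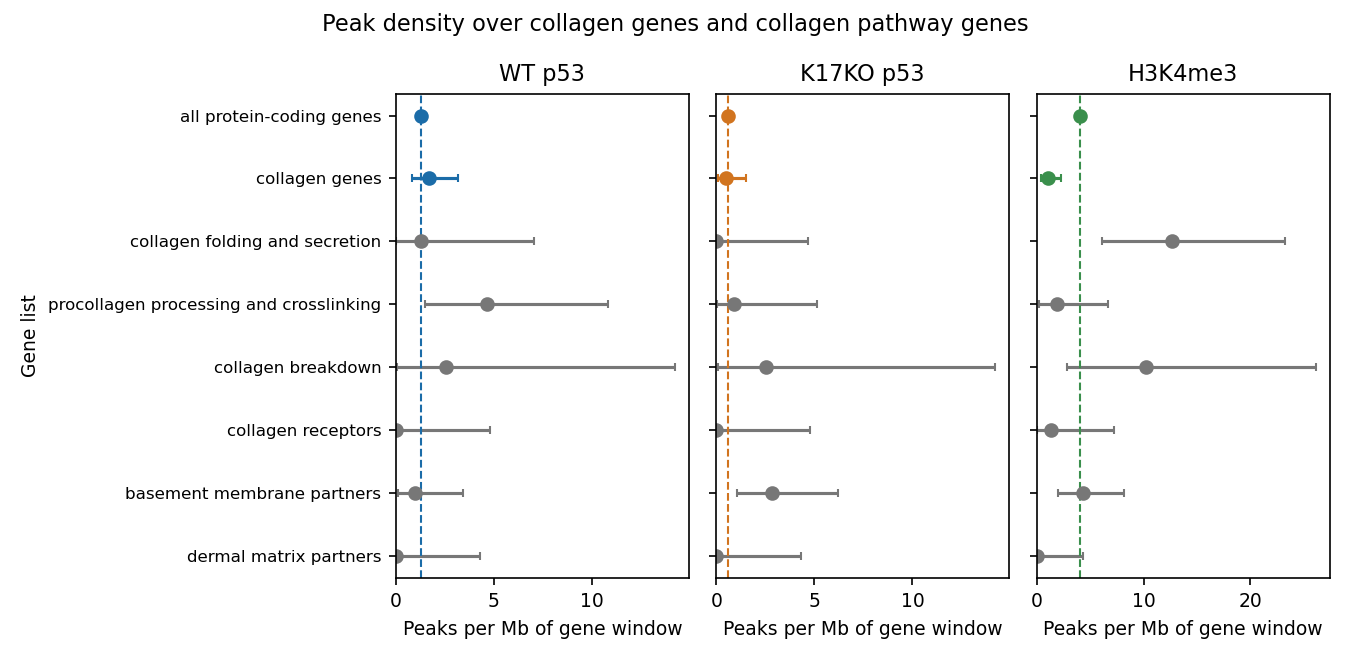
Peaks per Mb of gene window (x axis, points) with exact Poisson 95% intervals (bars) for all protein-coding genes, the 44 collagen genes and 6 lists of collagen pathway genes (y axis), 1 panel for each peak list, the dashed line marking all protein-coding genes. Collagen genes lie near the line in both p53 panels (1.71 and 0.513) and below it for H3K4me3 (1.03 against 4.07).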

How the data were processed

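The samples, 12 ChIP libraries of mouse back skin, are represented by 3 deposited peak lists with 10 columns and no header. Bowtie2 version 2.2.5, SAMtools version 1.7, MACS2 version 2.1.2 and the build mm10 are named in the submitters' processing notes, with no role or order, and the peak names in the files are MACS2's. Each peak carries a fold enrichment, a ratio deposited by the authors, with the −log10 p and −log10 q the authors deposited beside it. The sources used here do not state the control, the threshold or any pooling of libraries.

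The numbers of fragments and background were worked back from each fold and −log10 p. This took the fold as (fragments + 1) / (background + 1) and p as the Poisson probability of exceeding the fragments. Whole fragments matched the −log10 p within 0.001 for 100% of peaks in each list. Gene positions were those of the RefSeq table of GRCm38.p6, which has mm10 coordinates, for chromosomes 1 to 19, X and Y. It gives no exons, so exons and introns were not told apart, and strand came from the RefSeq promoter table, which held 35 of the 44 members. A symbol of the FACIT list, Col21a1, matched no gene of the table. Shares have exact Clopper-Pearson and rates exact Poisson intervals at 95%. No test between groups was made, because no list has replicates. Peak assignment was tested on simulated data. Computations used Python 3.11.15, pandas 2.3.3 and scipy 1.17.1.

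The members and lists were chosen with earlier results of these data known. Every member with a peak is named. Members of the fibrillar, basement membrane and epidermal classes without a peak are named, and up to 4 genes of highest fold per pathway or marker list. Members of other classes, marker and pathway genes without a peak, and the peaks in neighbouring genes, were chosen for naming after their values were seen. Alternatives were windows of 1 and 20 kb, gene ends only, q-value limits, the upper 50% by fold, and any overlap.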

Additional observations from a re-analysis of the deposited data

How the results depend on the processing

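No paired analysis was possible because the lists name no library or replicate, and no replicate could be left out. With any overlap of at least 1 bp in place of the midpoint, every count stayed within 1.5 times of its value. With a window of 1 kb the basement membrane and epidermal genes with a WT p53 peak numbered 1 and 0, and the basement membrane genes with an H3K4me3 peak 0. At that window 5.70% of all genes had a WT p53 peak and 21.1% an H3K4me3 peak. With a window of 20 kb, 11 collagen genes had an H3K4me3 peak, with 16 peaks, which is 25% against 32.9% of all genes. The WT p53 members were then 13, or 29.5% against 10.8% of all genes. With gene ends only, WT p53 gave 4 genes and 4 peaks, of which 1 fibrillar and 1 basement membrane gene. The 4 genes are 9.09% of the collagen genes (exact interval 2.53 to 21.7). All genes had such a peak in 2.72% of cases, which this interval took in. K17KO p53 gave 0 genes, 0 peaks and 0 epidermal genes, where 2.37% of all genes had such a peak. At a q-value of at most 0.1, WT p53 kept 1 fibrillar and 0 epidermal genes, where 4.07% of all genes had a peak. At 0.01 WT p53 gave 3 genes and 3 peaks, with 1 fibrillar, 0 basement membrane and 0 epidermal (6.82% against 0.822% of all genes). H3K4me3 gave 3 genes and 3 peaks with 1 fibrillar gene (6.82% against 18.4%). In the upper 50% by fold, WT p53 had 1 fibrillar and 0 epidermal genes, and H3K4me3 0 basement membrane genes. There 3.58% and 10.8% of all genes had a peak. In these settings fewer peaks or a different window were counted. The other 82 of the 107 counts stayed within 1.5 times. The WT p53 peaks rested on 6 to 9 fragments, which limits their precision, and absence from a list is not absence of binding.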
